A study of Homo sapiens with 24 samples.

Results

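AP-1 and EGR immediate early factors are described here across 2 triple-negative breast cancer lines before and after whole-genome doubling. The members are the 10 rows of the gene count table whose gene name is FOS, FOSB, FOSL1, FOSL2, JUN, JUNB, JUND, EGR1, ATF3 or IER3, of 29744 genes in all. Each name was found once. HCC1806 is an established basal-like line and MDA-MB-231 an established mesenchymal-like line. In each line a parental aneuploid population served as control, and doubled populations had arisen by cell fusion, by mitotic slippage (exit from mitosis without division) or by failure of cytokinesis. The doubled cells had been sorted by flow cytometry and expanded, and all cells, controls included, were grown for 48 h in 6-well plates with no further treatment before RNA was isolated. Each of the 8 groups holds 3 biological replicates, sequenced by TAGseq, which counts reads near the 3′ ends of polyadenylated transcripts. The labels do not say whether the 3 replicates of a group are separate derivations or separate cultures of 1 population. A route and the particular cells that represent it therefore cannot be told apart, and p-values measure only the spread among those replicates.

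AP-1 is a dimer of basic leucine zipper proteins: a FOS family member (FOS, FOSB, FOSL1, FOSL2) pairs with a JUN family member (JUN, JUNB, JUND), and JUN proteins can also pair with one another or with ATF factors. Several of these genes, with the zinc finger factor EGR1, are immediate early genes, switched on within minutes of growth factor or stress signals through ERK, JNK and p38 kinases without new protein synthesis. FOSL1 (FRA-1) and JUN are known as prominent AP-1 subunits of triple-negative breast cancer cells. ATF3 is a stress-induced bZIP factor, and IER3 is an early response gene whose product is not a transcription factor.

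The libraries held 3060622 to 4030297 counts in HCC1806 and 2455707 to 3837957 in MDA-MB-231. Levels are CPM, the count scaled to library size by TMM in each line's own fit. A gene was called where edgeR's quasi-likelihood test gave a Benjamini-Hochberg adjusted p under 0.05 over all genes tested, 11467 in HCC1806 and 11424 in MDA-MB-231. The lines matched their labels: the basal keratin KRT5 had 1135 to 1934 counts per HCC1806 library and 0 to 1 in MDA-MB-231, and VIM had 0 to 7 and 7598 to 11262. Summed markers of immune cells reached at most 1.74 CPM in an HCC1806 library and 7.18 in an MDA-MB-231 library. In MDA-MB-231, slippage replicate 3 and cytokinesis failure replicate 1 differed more from their groups than other replicates did. The chi-square per degree of freedom between replicates was 2.26 to 2.45 for pairs with either library and 1.30 to 1.87 for all other pairs, so results for those groups are also given without both. In these bulk libraries, fewer cells of a type and less RNA per cell cannot be told apart.

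The promoter set used here (GRCh38.p14) held entries for 8 members, not FOSL1 and IER3. The 250 bases before the start are shown for EGR1, the member with the largest fold change in HCC1806; JUN, which fell in HCC1806 and rose in MDA-MB-231; and JUND, which rose in both lines. They read 5′ to 3′ along the gene, from chr5:138465229-138465478 (plus strand), chr1:58784048-58784297 (minus strand) and chr19:18281623-18281872 (minus strand). Capitals mark matches to the CArG box, the binding motif of serum response factor, or to the CRE-like AP-1 motif TGACNTCA, known as a site for JUN-ATF dimers.
EGR1: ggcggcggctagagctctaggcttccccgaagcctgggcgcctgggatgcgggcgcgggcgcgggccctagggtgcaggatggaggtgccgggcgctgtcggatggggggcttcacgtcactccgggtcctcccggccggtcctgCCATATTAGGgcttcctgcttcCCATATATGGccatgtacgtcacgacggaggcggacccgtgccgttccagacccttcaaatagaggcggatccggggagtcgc
JUN: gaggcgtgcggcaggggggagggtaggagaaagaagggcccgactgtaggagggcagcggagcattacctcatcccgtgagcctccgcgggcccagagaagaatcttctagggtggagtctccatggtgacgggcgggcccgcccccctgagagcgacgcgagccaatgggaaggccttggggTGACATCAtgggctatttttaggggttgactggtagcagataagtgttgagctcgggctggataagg
JUND: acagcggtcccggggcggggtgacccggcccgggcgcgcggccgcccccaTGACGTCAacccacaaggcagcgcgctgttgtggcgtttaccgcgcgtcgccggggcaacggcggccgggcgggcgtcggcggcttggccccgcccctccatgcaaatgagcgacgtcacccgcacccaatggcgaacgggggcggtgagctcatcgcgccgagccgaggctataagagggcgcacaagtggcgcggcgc
Searches covered both strands of 35114 promoters of 300 bases, from 250 before to 50 after the start. EGR1 held 2 CArG boxes, CCATATTAGG from base -105 to -96 and CCATATATGG from -83 to -74. No other member with an entry held one within the 300 bases, and 1.29% of all promoters did. Bases farther from the start were not searched, so a member without a match here may hold one there. TGACNTCA was present in JUN, JUND and ATF3, 3 of 8 members, against 7.72% of all promoters. TGACATCA lay at -67 to -60 in JUN, and TGACGTCA, which contains the shorter CRE core TGACG on each strand, lay at -200 to -193 in JUND. The AP-1 motif TGANTCA was found in FOSL2, 1 of 8, against 7.71%. TGACG, on either strand, was present in 7 of 8 members and 24.6% of promoters. GCGNGGGCG, the EGR motif, was present in EGR1 alone of the members and in 9.43% of promoters. These are matches of letters, not measured binding. JUN, JUNB and JUND each have 1 exon, as do 7.59% of 14326 genes compared.

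Counted together, the HCC1806 calls were mostly falls and the MDA-MB-231 calls were all rises. In HCC1806 fusion, 3 of 8 tested members fell (background 5.55% of tested genes) and 1 rose (5.33%). In slippage 3 of 8 fell (1.81%) and none rose (1.53%). In cytokinesis failure 5 of 8 fell (8.63%) and 1 rose (8.37%). In MDA-MB-231, 3 of 9 rose after fusion (9.34%), 1 of 9 after slippage (3.27%) and 2 of 9 after cytokinesis failure (2.29%), and none fell (8.11%, 2.91% and 2.35%). The median log2 change of the tested members was -0.23, -0.13 and -0.45 in HCC1806 fusion, slippage and cytokinesis failure and 0.21, 0.22 and 0.08 in MDA-MB-231, where the median of all tested genes stayed between -0.0031 and 0.0018. Over all genes, the share of called genes that were higher differed between edgeR and limma on TPM, which changes scale, normalization and test together. On log2(TPM + 1) with limma it was 33.1% against 49.0% by edgeR after HCC1806 fusion, 23.9% against 45.8% after slippage, 65.3% against 49.2% after cytokinesis failure, and 18.3% against 53.5% after MDA-MB-231 fusion, where TPM moved the median of all genes by -0.10. The 3 comparisons of a line share their control libraries, so they are not independent of one another. The HCC1806 fusion count of 4 calls became 2 without control replicate 2, control replicate 3 or fusion replicate 1, which carried FOSL1 and FOSL2. Groups whose libraries did not overlap control were counted as well. In HCC1806 4 of 8 tested members lay wholly below control in fusion (13.3% of all genes) and 1 above (13.3%), 3 below in slippage (8.93%) and 0 above (9.16%), and 6 below in cytokinesis failure (15.7%) and 1 above (15.9%). In MDA-MB-231 3 of 9 lay wholly above control after fusion (17.3%), 3 after slippage (12.4%) and 2 after cytokinesis failure (11.1%), and 0 below (17.0%, 11.9% and 11.1%). In MDA-MB-231 the cytokinesis failure count of 2 became 1 without control replicate 1 or cytokinesis failure replicate 2, and the slippage count of 1 became 0 when any control or slippage replicate 1 or 2 was left out. DESeq2 called 1 member in HCC1806 fusion, 1 in slippage and 0 in MDA-MB-231 slippage; it gave EGR1 no adjusted p in the first 2, so EGR1 is not among those it lost.

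**Figure D1:**
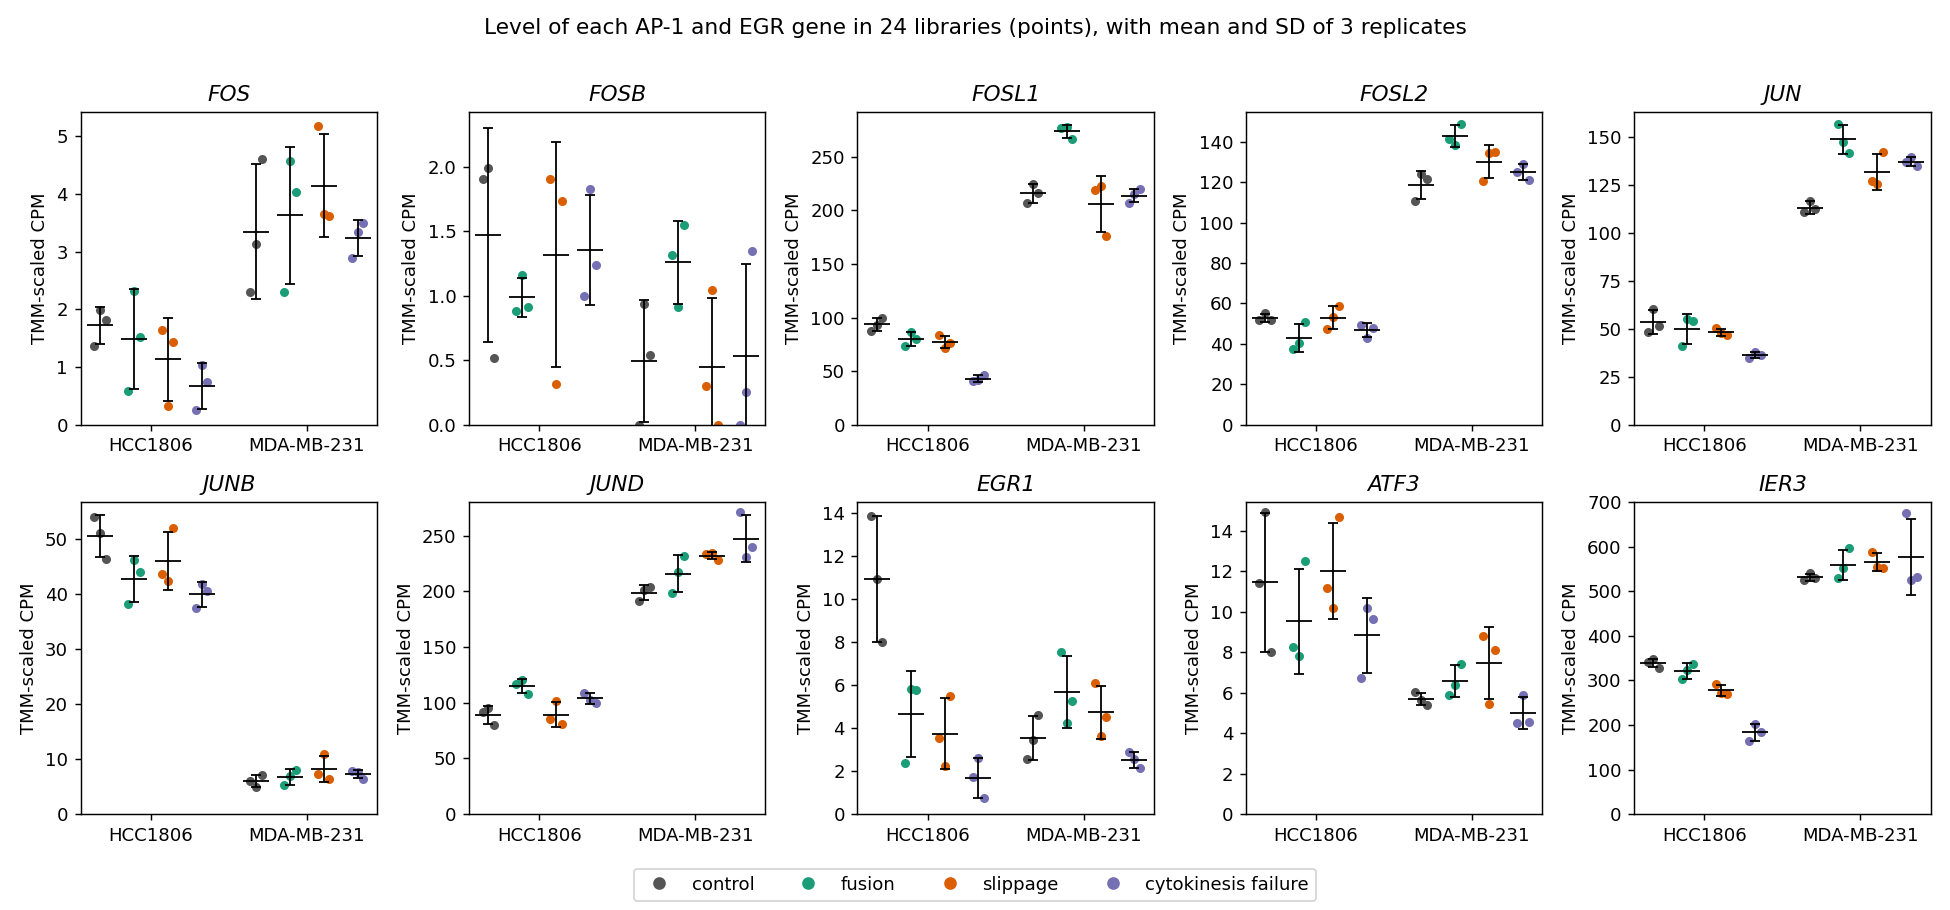
Level of each gene in TMM-scaled CPM (vertical axes, linear from 0) in 24 libraries; points are libraries, coloured by population, and the bar and whiskers are the mean and SD of 3 replicates (whiskers below 0 are cut off). FOSL1 in HCC1806 cytokinesis failure sits at 41.1 to 46.4 CPM, below its controls at 87.6 to 99.8, and in MDA-MB-231 fusion at 267 to 277, above controls at 207 to 224.

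In the FOS family, FOSL1 had the most reads in control and, among the members tested against control, the largest called change, falling in all 3 doubled HCC1806 populations and rising in MDA-MB-231 fusion. FOSL1 (chr11:65892049-65900545), in HCC1806, stood at 87.6, 93.1 and 99.8 CPM in control replicates 1 to 3. Fusion libraries read 73.1, 86.2 and 80.1 CPM, and slippage libraries 83.6, 71.7 and 76.4. Cytokinesis failure libraries read 41.1, 41.7 and 46.4 CPM. No doubled library reached the lowest control, and the cytokinesis failure libraries were below all others. FOSL1 fell by 1.12 ± 0.081 (standard error) on the log2 scale in cytokinesis failure (edgeR adjusted p = 1.20e-20). It fell by 0.23 ± 0.074 in fusion (edgeR adjusted p = 0.0301) and by 0.27 ± 0.075 in slippage (0.0202). The fall after cytokinesis failure was larger than in either other route, with fusion higher by 0.89 ± 0.085 (edgeR adjusted p = 1.06e-14) and slippage higher by 0.84 ± 0.085 (4.24e-13), while fusion and slippage differed by 0.04 (95% interval -0.11 to 0.20). Leaving out any of several single libraries ended the calls of the 2 smaller falls. In fusion the edgeR adjusted p of FOSL1 rose to 0.0567 without control replicate 2, 0.200 without control replicate 3, 0.233 without fusion replicate 1 and 0.0687 without fusion replicate 3, and DESeq2 gave 0.196. In slippage DESeq2 gave 0.197, and the edgeR value rose to 0.168 when control replicate 3 was left out, 0.135 when slippage replicate 2 was, and 0.0777 when slippage replicate 3 was. The call in cytokinesis failure held under all 13 alternatives run.

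In MDA-MB-231, FOSL1 stood at 207, 224 and 216 CPM in control. Fusion libraries read 276, 277 and 267 CPM, all above every control. Slippage libraries read 219, 222 and 176 CPM and cytokinesis failure libraries 207, 215 and 219. FOSL1 rose by 0.34 ± 0.065 in fusion (edgeR adjusted p = 1.45e-04), and its call was lost on log2(TPM + 1) with limma (adjusted p = 0.0592). The change was -0.07 ± 0.066 in slippage (95% interval -0.19 to 0.06) and -0.01 ± 0.066 in cytokinesis failure (-0.14 to 0.12), neither called. Slippage replicate 3, the lowest FOSL1 library, is 1 of the 2 that stand apart, and without both the slippage change was 0.03. Fusion exceeded slippage by 0.41 ± 0.065 (edgeR adjusted p = 9.78e-06) and cytokinesis failure by 0.35 ± 0.065 (6.43e-05). Without the 2 noisier libraries those differences were 0.31 and 0.34, still called.

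FOSL2 (FRA-2, chr2:28392858-28417317), the other FOS-related subunit with substantial counts, was called in the fusion population of each line, lower in HCC1806 and higher in MDA-MB-231. HCC1806 controls read 51.7, 55.4 and 51.7 CPM and fusion libraries 37.5, 40.3 and 50.6. Slippage libraries ranged from 47.4 to 58.5 CPM and cytokinesis failure libraries from 42.8 to 49.6. FOSL2 fell by 0.31 ± 0.10 in HCC1806 fusion (edgeR adjusted p = 0.0327). The edgeR adjusted p passed 0.05 without any control (0.0610, 0.109 and 0.0603 without replicates 1, 2 and 3), without fusion replicate 1 (0.252) or without fusion replicate 2 (0.144), and DESeq2 gave 0.171. Fusion was also below slippage by -0.31 ± 0.10 (edgeR adjusted p = 0.0360), although the libraries overlapped. That call was lost without fusion replicate 1 (0.264), fusion replicate 2 (0.163), slippage replicate 2 (0.0850) or slippage replicate 3 (0.240). In MDA-MB-231, controls read 111, 124 and 121 CPM and fusion libraries 141, 138 and 149, so no libraries overlapped. FOSL2 rose there by 0.27 ± 0.069 (edgeR adjusted p = 0.00507; 0.0617 without control replicate 1, and 0.321 on log2(TPM + 1) with limma). Slippage (121 to 135 CPM) and cytokinesis failure (121 to 129 CPM) differed from control by 0.13 ± 0.069 and 0.08 ± 0.070, not called. Fusion exceeded cytokinesis failure by 0.19 ± 0.069 (edgeR adjusted p = 0.0383). That call was lost without fusion replicate 1 (0.0616), fusion replicate 3 (0.121), cytokinesis failure replicate 2 (0.0501) or cytokinesis failure replicate 3 (0.124), and with DESeq2 (0.113).

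FOS (chr14:75278828-75282230) and FOSB (chr19:45467996-45475179), the classical early subunits, were close to the limit of detection. FOS had 1 to 8 counts per HCC1806 library and 7 to 17 per MDA-MB-231 library. FOSB had 1 to 7 counts per HCC1806 library and 0 to 5 per MDA-MB-231 library. For the 3 MDA-MB-231 libraries with 0 FOSB counts, an approximate upper limit is 0.871, 0.911 and 1.22 CPM. It is 3 counts of each raw library total, without TMM scaling, and covers counting error only. FOSB passed the filter on low counts in neither line and FOS only in MDA-MB-231, so neither was tested in HCC1806, where 8 of 10 members were tested, against 9 of 10 in MDA-MB-231. FOS in HCC1806 read 1.72 ± 0.324 CPM (SD, n = 3) in control and 0.678 ± 0.401 after cytokinesis failure. All 3 of the latter libraries, at 1, 4 and 3 counts, were below all 3 controls, at 5, 6 and 7. Of tested genes, which leave FOS out, 15.7% lay wholly below control there. For FOS in MDA-MB-231 the change from control was 0.12 ± 0.36 after fusion, 0.29 ± 0.35 after slippage and -0.04 ± 0.37 after cytokinesis failure, none called. A change of the size seen for FOSL1 in fusion was not detectable for FOS at this depth.

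In the JUN family the 3 genes moved differently: JUN fell in HCC1806 cytokinesis failure and rose in 2 MDA-MB-231 routes, JUND rose in both lines, and JUNB changed in 1 comparison only. JUN (chr1:58780791-58784047), the strongest transactivator of the family, read 48.7, 60.7 and 51.7 CPM in HCC1806 controls. Fusion libraries read 41.0, 55.4 and 53.9 CPM and slippage libraries 50.4, 48.1 and 46.7, both overlapping control. Cytokinesis failure libraries read 34.9, 37.8 and 36.3 CPM and lay below all 9 others. JUN fell by 0.55 ± 0.10 in cytokinesis failure (edgeR adjusted p = 1.44e-05), a call kept under all 13 alternatives. The changes of -0.09 ± 0.097 in fusion and -0.14 ± 0.098 in slippage were not called. JUN in fusion exceeded cytokinesis failure by 0.46 ± 0.10 (edgeR adjusted p = 3.70e-04) and in slippage by 0.42 ± 0.10 (0.00515; DESeq2 0.0539).

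In MDA-MB-231, JUN read 111, 117 and 112 CPM in control, 157, 148 and 142 after fusion, 127, 126 and 143 after slippage and 137, 140 and 135 after cytokinesis failure. All 9 doubled libraries were above all 3 controls. JUN rose by 0.39 ± 0.069 in fusion (edgeR adjusted p = 4.47e-05, called under all 13 alternatives). It rose by 0.28 ± 0.069 in cytokinesis failure (edgeR adjusted p = 0.0105), a call lost without control replicate 1 (0.0811) or cytokinesis failure replicate 2 (0.0717) and kept without the 2 noisier libraries (0.00455). In slippage the change was 0.22 ± 0.069 with an adjusted p of 0.0504, just outside the threshold; it was 0.0472 without slippage replicate 2, and 0.190 without the 2 noisier libraries. Fusion and slippage differed by 0.18 ± 0.067 (edgeR adjusted p = 0.0648), a difference called without fusion replicate 3 (0.0423), without slippage replicate 3 (0.0151) and without both noisier libraries (0.00720). Against cytokinesis failure, JUN differed by 0.12 in fusion (95% interval -0.02 to 0.25) and by -0.06 in slippage (-0.19 to 0.07), neither called.

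JUND (chr19:18279694-18281622), the family member known for steady expression in resting cells, was the only member that rose in HCC1806. Controls read 91.7, 95.5 and 79.7 CPM, fusion 117, 120 and 108, slippage 85.2, 102 and 81.0, and cytokinesis failure 109, 103 and 99.8. Every fusion and cytokinesis failure library was above every control, while slippage overlapped control. JUND rose by 0.38 ± 0.072 in fusion (edgeR adjusted p = 5.67e-05, kept under all 13 alternatives) and by 0.23 ± 0.072 in cytokinesis failure (0.0166). The second call was lost without control replicate 3 (0.249) or cytokinesis failure replicate 1 (0.110) and with DESeq2 (0.128). In slippage the change was 0.01 ± 0.075 (95% interval -0.14 to 0.16), and fusion exceeded slippage by 0.37 ± 0.073 (edgeR adjusted p = 1.12e-04). Cytokinesis failure exceeded slippage by a smaller margin, -0.22 ± 0.072 for slippage against it (edgeR adjusted p = 0.0449). That call was lost without any of slippage replicates 1 and 3 (0.183 and 0.281) or cytokinesis failure replicates 1, 2 and 3 (0.212, 0.0885 and 0.0528).

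In MDA-MB-231, JUND read 191, 201 and 204 CPM in control, 198, 217 and 231 in fusion, 233, 234 and 228 in slippage and 271, 231 and 239 in cytokinesis failure. Slippage and cytokinesis failure libraries were all above control, and fusion overlapped it. JUND rose by 0.31 ± 0.063 in cytokinesis failure (edgeR adjusted p = 0.00129) and by 0.22 ± 0.063 in slippage (0.0248), and was 0.12 ± 0.064 in fusion (0.213). Without the 2 noisier libraries the first 2 values were 0.24 (edgeR adjusted p = 0.00553) and 0.23 (0.00879). Leaving out control replicate 1 (0.140), 2 (0.0747) or 3 (0.0575), or slippage replicate 1 (0.0633) or 2 (0.0814), ended the slippage call. Fusion was below cytokinesis failure by -0.19 ± 0.063 (edgeR adjusted p = 0.0230). That call was lost without fusion replicate 1 (0.185), fusion replicate 2 (0.0600) or cytokinesis failure replicate 1 (0.150), and without both noisier libraries (0.128).

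JUNB (chr19:12791486-12793315), often a weaker activator than JUN, read 53.9, 51.0 and 46.3 CPM in HCC1806 controls and 37.4, 41.7 and 40.5 in cytokinesis failure, with no overlap. Fusion read 38.0, 46.2 and 43.9 CPM and slippage 43.6, 42.4 and 51.9. JUNB fell by 0.34 ± 0.098 in cytokinesis failure (edgeR adjusted p = 0.00906; 0.0800 without control replicate 1, 0.0649 without cytokinesis failure replicate 1 and 0.0848 with DESeq2). Its changes in fusion (-0.24 ± 0.10) and slippage (-0.13 ± 0.098) were not called. In MDA-MB-231 it had only 16 to 42 counts per library, and none of its changes, 0.16 to 0.45, was called. JUNB overlaps HOOK2 in the annotation; over all 24 libraries HOOK2 had 1229 counts and JUNB 2198, and the strand setting of the counting is not recorded, so reads of the pair may be mixed.

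**Figure D2:**
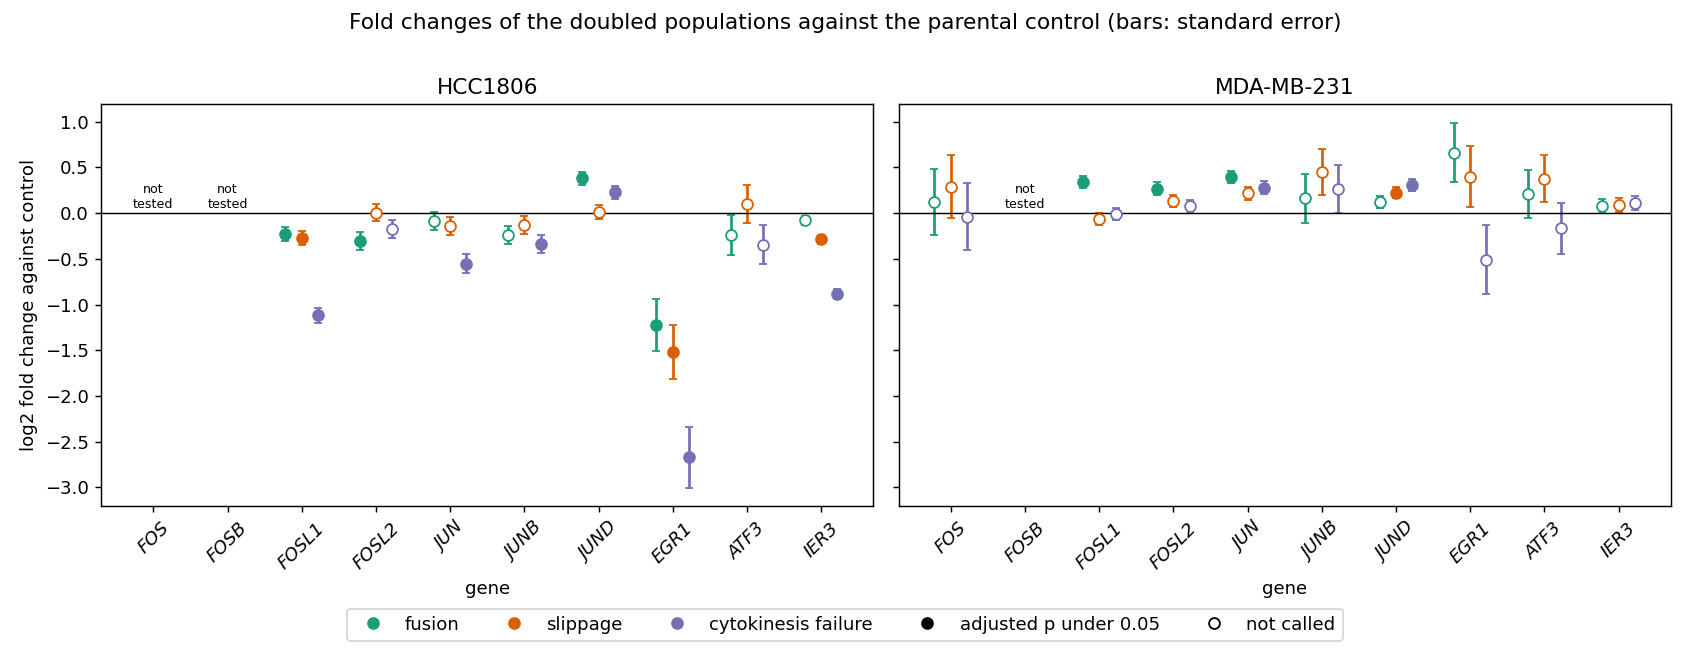
Log2 fold change of each doubled population against its parental control (vertical axis) for each gene, with standard errors; filled points have an adjusted p under 0.05 and open points do not. In HCC1806 the largest change is EGR1 in cytokinesis failure at -2.67, with JUND alone called above 0; in MDA-MB-231 every called point lies above 0, between 0.22 and 0.39.

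EGR1 (chr5:138465479-138469303), the zinc finger factor with the 2 CArG boxes shown above, had the largest fold changes of the members and fell in all 3 doubled HCC1806 populations. Controls read 13.9, 10.9 and 8.02 CPM (51, 33 and 31 counts). Fusion read 2.36, 5.81 and 5.79 CPM, and slippage 3.54, 2.23 and 5.48. Cytokinesis failure read 1.74, 2.61 and 0.741 CPM, from 7, 10 and 3 counts. All 9 doubled libraries were below all 3 controls. EGR1 fell by 1.23 ± 0.28 after fusion (edgeR adjusted p = 0.00126), by 1.52 ± 0.29 after slippage (3.52e-04) and by 2.67 ± 0.33 after cytokinesis failure (2.34e-09). None of these 3 calls was lost when any library was left out. DESeq2 gave EGR1 no adjusted p after fusion or slippage and called it after cytokinesis failure. On log2(TPM + 1) with limma the slippage call was lost (adjusted p = 0.0534), and on log2(TPM + 0.1) those of slippage (0.126) and fusion (0.0981). The scatter among replicates was wide, with a coefficient of variation of 38.1% within groups against 23.3% from counting alone. Fusion exceeded cytokinesis failure by 1.45 ± 0.40 (edgeR adjusted p = 0.00614) although libraries overlapped. That call was lost without fusion replicate 2 (0.0634), fusion replicate 3 (0.0534) or cytokinesis failure replicate 3 (0.0683). Slippage exceeded cytokinesis failure by 1.16 ± 0.42 (edgeR adjusted p = 0.0847), a difference called without slippage replicate 2 (0.0491) or cytokinesis failure replicate 2 (0.0450).

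In MDA-MB-231, EGR1 had 7 to 23 counts per library. It read 2.58, 3.44 and 4.61 CPM in control, 7.54, 4.26 and 5.27 in fusion, 6.08, 3.65 and 4.51 in slippage and 2.88, 2.57 and 2.15 in cytokinesis failure. Each doubled group overlapped control, and the changes of 0.66 ± 0.33, 0.40 ± 0.33 and -0.51 ± 0.38 were not called. Fusion lay above cytokinesis failure in every library and by 1.17 ± 0.35 (edgeR adjusted p = 0.0124; 0.103 without fusion replicate 1, 0.0583 without cytokinesis failure replicate 3, 0.0605 with DESeq2).

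ATF3 (chr1:212565407-212620777), the stress-induced bZIP factor, was called in 0 of the 6 comparisons with control by edgeR, and its unadjusted p was not under 0.05 in any of them. It read 8.02 to 14.9 CPM in HCC1806 controls, 7.84 to 12.5 in fusion, 10.2 to 14.7 in slippage and 6.72 to 10.2 in cytokinesis failure. In MDA-MB-231 the groups spanned 4.53 to 8.81 CPM. With 11 to 51 counts per library, the 95% intervals were wide, from -0.76 to 0.07 for HCC1806 cytokinesis failure and from -0.13 to 0.88 for MDA-MB-231 slippage.

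IER3 (chr6:30743199-30744547), an early response gene linked to survival signalling and the member with most reads, fell in HCC1806 slippage and cytokinesis failure, with the larger fall in the latter. Controls read 342, 348 and 329 CPM and fusion 303, 323 and 338, which overlap. Slippage read 293, 272 and 269 CPM and cytokinesis failure 165, 203 and 184, each below all libraries of the groups before it. IER3 fell by 0.29 ± 0.051 in slippage (edgeR adjusted p = 8.81e-05) and by 0.88 ± 0.053 in cytokinesis failure (2.59e-23), and the -0.08 ± 0.050 of fusion was not called (0.359). The slippage call was lost on log2(TPM + 1) with limma (0.0579). Fusion exceeded slippage by 0.21 ± 0.051 (edgeR adjusted p = 0.00368; 0.0584 without fusion replicate 3), and slippage exceeded cytokinesis failure by 0.60 ± 0.054 (4.06e-14). Fusion exceeded cytokinesis failure by 0.80 ± 0.053 (edgeR adjusted p = 5.08e-21). In MDA-MB-231, IER3 read 525 to 541 CPM in control, 530 to 596 in fusion, 553 to 589 in slippage and 525 to 676 in cytokinesis failure, with changes of 0.07, 0.09 and 0.11, each ± 0.076 and not called. The highest of these libraries, cytokinesis failure replicate 1 at 676 CPM, is 1 of the 2 that stand apart, and without both the change was -0.01.

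Some technical values and cell type markers moved with the HCC1806 result. The cytokinesis failure libraries were the deepest of that line, at 3829229 to 4030297 counts against 3060622 to 3811159 in control. The summed level of 6 of 6 basal epithelial markers (KRT5, KRT14, KRT6A, KRT17, CDH1, EPCAM) was 1505 to 1596 CPM in control, 1364 to 1425 in fusion, 1354 to 1401 in slippage and 1288 to 1348 in cytokinesis failure. Of the 12 heat shock genes, a list of chaperone and co-chaperone genes, 7 fell and 2 rose in cytokinesis failure, where 8.63% of all genes fell and 8.37% rose. Those counts were 4 and 1 without control replicate 2, and 1 fell on log2(TPM + 1) with limma. In HCC1806 fusion 1 fell and 2 rose (5.55% and 5.33%), and in slippage 1 and 1 (1.81% and 1.53%). In MDA-MB-231 fusion 2 fell and 1 rose (8.11% and 9.34%), in slippage 4 and 0 (2.91% and 3.27%), and in cytokinesis failure 1 and 0 (2.35% and 2.29%). The 4 falls were 2 to 3 without 1 library and 6 without the 2 noisier libraries. In MDA-MB-231 the summed level of 5 of 5 mesenchymal markers was 3427 to 3462 CPM in control, 3651 to 3784 after fusion, 3416 to 3632 after slippage and 3464 to 3841 after cytokinesis failure. That of 4 endothelial markers was 2.44 to 3.75 CPM in control, 4.92 to 8.07 after fusion, 2.73 to 7.22 after slippage and 5.35 to 7.95 after cytokinesis failure. Both sums lay wholly above control after fusion and after cytokinesis failure. For the first sum after cytokinesis failure the margin was narrow, 3464 CPM against a highest control of 3462. Of single tested genes, 17.3% lay wholly above control after fusion and 11.1% after cytokinesis failure. VIM made up most of the first sum, with a mean of 2853 CPM over the 12 MDA-MB-231 libraries, and SPARC had 0 to 4 counts per library. PECAM1 (mean 4.13 CPM) and KDR (1.17 CPM) made up nearly all of the second. VWF had 0 to 1 counts per library, and CDH5 was at 0 in all 24 libraries. The part of depth, of epithelial or mesenchymal state and of stress in the members' changes was not tested.

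In HCC1806 the route pairs placed cytokinesis failure below both other routes for some members only. Against cytokinesis failure, fusion was higher for 4 of 8 members (background 8.96%) and lower for none (8.96%), and slippage was higher for 3 (4.08%) and lower for 1 (2.72%). Fusion against slippage gave 2 higher (4.20%) and 1 lower (5.02%). FOSL1, JUN and IER3 were below both other routes in cytokinesis failure. In MDA-MB-231, fusion exceeded slippage for 1 of 9 members (9.09%) and cytokinesis failure for 3 (12.6%), with JUND lower than in cytokinesis failure (11.8%); none was lower than in slippage (8.0%). The 4 calls of fusion against cytokinesis failure became 1 without fusion replicate 1 and 2 without cytokinesis failure replicate 3. Slippage and cytokinesis failure differed for 0 of 9 members by edgeR (2.10% higher and 1.08% lower over all genes) and 0 by DESeq2; 2 members had an unadjusted p under 0.05. The order of levels was thus resolved only in part. For EGR1 in HCC1806, control was above fusion. Fusion against slippage (edgeR adjusted p = 0.706) and slippage against cytokinesis failure (0.0847) were not called. For JUN in MDA-MB-231 no 2 neighbours in the order of fusion, cytokinesis failure, slippage and control were resolved.

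One model over all 24 libraries and 12563 genes asked whether a member responded differently in HCC1806 and MDA-MB-231. After fusion, 4 of 9 tested members had a lower log2 change in HCC1806 (background 6.57%): FOSL1 by -0.58 ± 0.10, FOSL2 by -0.58 ± 0.12, JUN by -0.49 ± 0.12 and EGR1 by -1.89 ± 0.45 (edgeR adjusted p = 1.59e-05, 2.60e-04, 0.00185 and 0.00169). After slippage this was called for EGR1 alone, 1 of 9 (1.88%), by -1.91 ± 0.46 (edgeR adjusted p = 0.00626), while 6 of 9 had an unadjusted p under 0.05. After cytokinesis failure it held for 4 of 9 (3.22%): FOSL1 by -1.10 ± 0.11, JUN by -0.83 ± 0.12, EGR1 by -2.16 ± 0.56 and IER3 by -0.99 ± 0.11 (edgeR adjusted p = 2.71e-13, 1.97e-07, 0.00713 and 6.69e-06). No member had a higher change in HCC1806 (5.48%, 1.66% and 3.31% of all genes). JUND differed by 0.26 ± 0.10 after fusion (edgeR adjusted p = 0.0841; 0.0373 without MDA-MB-231 fusion replicate 3) and by -0.07 (95% interval -0.27 to 0.12) after cytokinesis failure. Without the 2 noisier libraries the slippage count became 3, with IER3 (-0.39, edgeR adjusted p = 7.01e-05) and FOSL1 (-0.31, 0.0483) added, and the cytokinesis failure count stayed at 4.

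**Figure D3:**
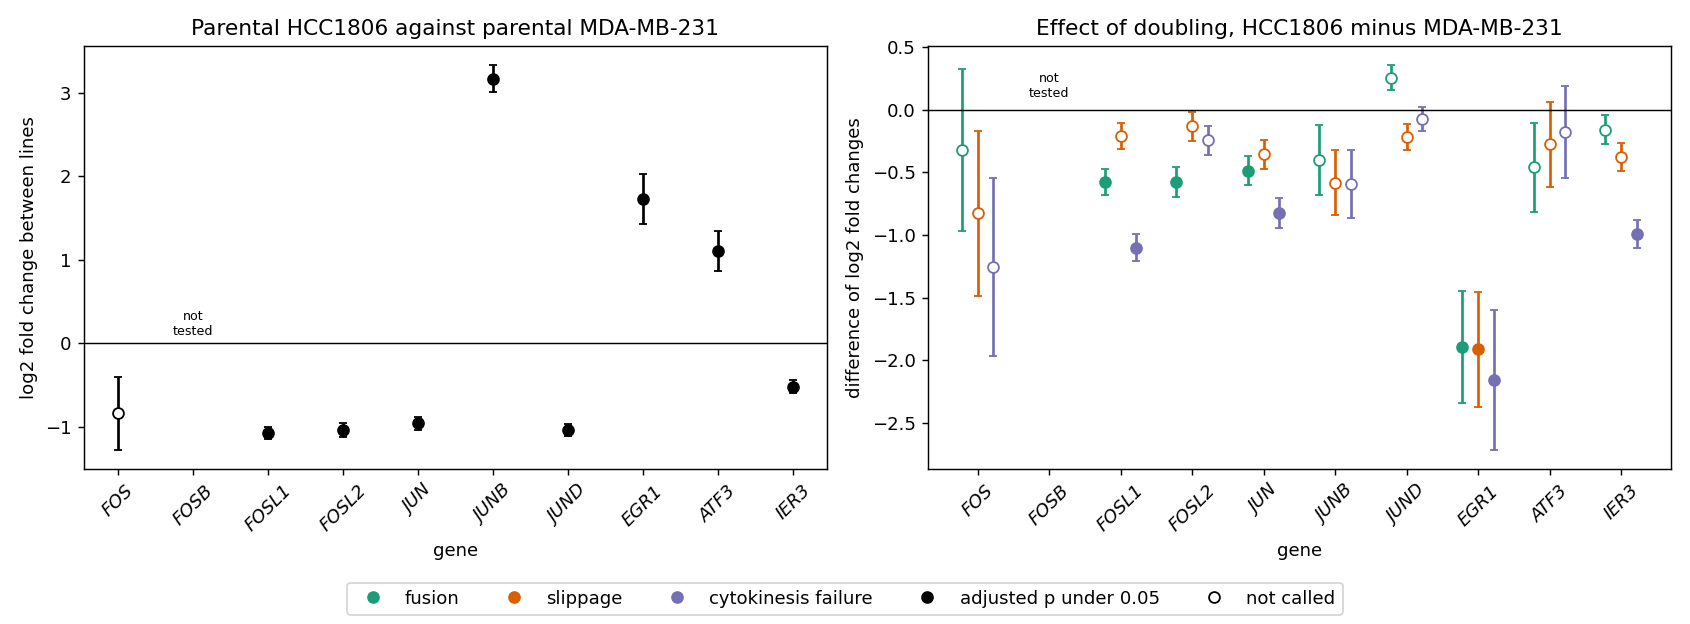
Left, log2 fold change of parental HCC1806 against parental MDA-MB-231 for each gene; right, the change on doubling in HCC1806 minus that in MDA-MB-231 for each route (log2), with standard errors, filled where the adjusted p was under 0.05. On the left JUNB stands at 3.17 and FOSL1 at -1.07; on the right every filled point lies below 0, from -0.49 to -2.16.

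The parental populations themselves differed. In parental HCC1806, FOSL1 was lower than in parental MDA-MB-231 (97.8 ± 6.12 against 206 ± 7.73 CPM, mean ± SD, n = 3, on the scale of all 24 libraries), by -1.07 ± 0.070 on the log2 scale. FOSL2 (55.4 ± 2.30 against 113 ± 6.30 CPM), JUN (56.2 ± 6.57 against 108 ± 2.83) and JUND (93.0 ± 8.91 against 190 ± 5.77) were lower by a similar log2 difference of -1.04, -0.96 and -1.04. IER3 was lower by -0.52 (355 ± 11.2 against 508 ± 6.57 CPM). JUNB was higher by 3.17 ± 0.16 (52.7 ± 4.15 against 5.76 ± 0.973 CPM), EGR1 by 1.73 ± 0.30 (11.5 ± 3.09 against 3.39 ± 0.962) and ATF3 by 1.11 ± 0.24. These 8 of 9 tested members were called by edgeR, 3 higher and 5 lower, where 38.8% of all genes were higher and 37.4% lower, a share too high to set the members apart. FOS differed by -0.84 ± 0.44 (edgeR adjusted p = 0.0750; 0.0397 without MDA-MB-231 control replicate 1).

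Genes reported as AP-1 targets form a list of 23 proteases, growth factors, cytokines and others. In HCC1806, 7 of 19 tested fell and 0 rose in fusion (5.55% and 5.33% of all genes), 8 fell and 1 rose in slippage (1.81% and 1.53%), and 13 fell and 0 rose in cytokinesis failure (8.63% and 8.37%). The median of the list was -0.25, -0.37 and -0.94 in that order. The falls included the EGFR ligand genes AREG and EREG: AREG fell by 0.46 ± 0.068 in fusion (edgeR adjusted p = 1.72e-07), by 0.46 ± 0.068 in slippage (7.40e-07) and by 1.21 ± 0.072 in cytokinesis failure (1.99e-25). EREG fell by 0.64 ± 0.076 in fusion (edgeR adjusted p = 1.62e-10) and by 1.03 ± 0.077 in cytokinesis failure (6.71e-20). The hyaluronan receptor gene CD44 fell by 0.20, 0.26 and 0.52 in the same order (edgeR adjusted p = 1.70e-06, 6.17e-09 and 5.88e-24). In fusion 1 gene rose without control replicate 2. The fusion count of falls was 4 without fusion replicate 2 and the slippage count 5 without slippage replicate 3. The rise in slippage was not called without control replicate 2.

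MMP1, which encodes interstitial collagenase and is a textbook AP-1 target, was low in HCC1806 slippage and cytokinesis failure but not in fusion. Its controls read 212, 251 and 245 CPM and its fusion libraries 268, 275 and 274, above all controls, whereas slippage read 114, 120 and 123 and cytokinesis failure 38.1, 52.4 and 57.1. MMP1 fell by 0.99 ± 0.079 in slippage (edgeR adjusted p = 6.17e-09) and by 2.26 ± 0.089 in cytokinesis failure (2.14e-16). In MDA-MB-231 it had 4 to 5 counts per control library, 59 to 65 in fusion, 14 to 27 in slippage and 14 to 16 in cytokinesis failure. It rose there by 3.84 ± 0.30, 2.09 ± 0.38 and 1.71 ± 0.40 (edgeR adjusted p = 9.52e-13, 2.73e-04 and 0.00627).

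Of the reported AP-1 targets, 16 were tested in MDA-MB-231, MMP1 included. Of these, 5 rose and 2 fell in fusion (9.34% and 8.11% of all genes), 4 rose and 0 fell in slippage (3.27% and 2.91%), and 5 rose and 1 fell in cytokinesis failure (2.29% and 2.35%). VEGFA, the angiogenic factor gene, rose by 0.49 ± 0.071, 0.44 ± 0.070 and 0.40 ± 0.071 (edgeR adjusted p = 1.55e-06, 3.35e-05 and 1.93e-04). EREG fell by 1.43 ± 0.12 in fusion (edgeR adjusted p = 6.79e-12) and rose by 0.40 ± 0.095 in cytokinesis failure (0.00600; 0.0526 without control replicate 2 and 0.127 without cytokinesis failure replicate 2). The count of rises in slippage was 2 without control replicate 1, and that in cytokinesis failure was 3 without control replicate 2 or cytokinesis failure replicate 2. The single fall in cytokinesis failure was not called without any control or without cytokinesis failure replicate 2 or 3, and the 2 falls in fusion were 1 without fusion replicate 1. Without the 2 noisier libraries 5 rose in each of slippage and cytokinesis failure.

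**Figure D4:**
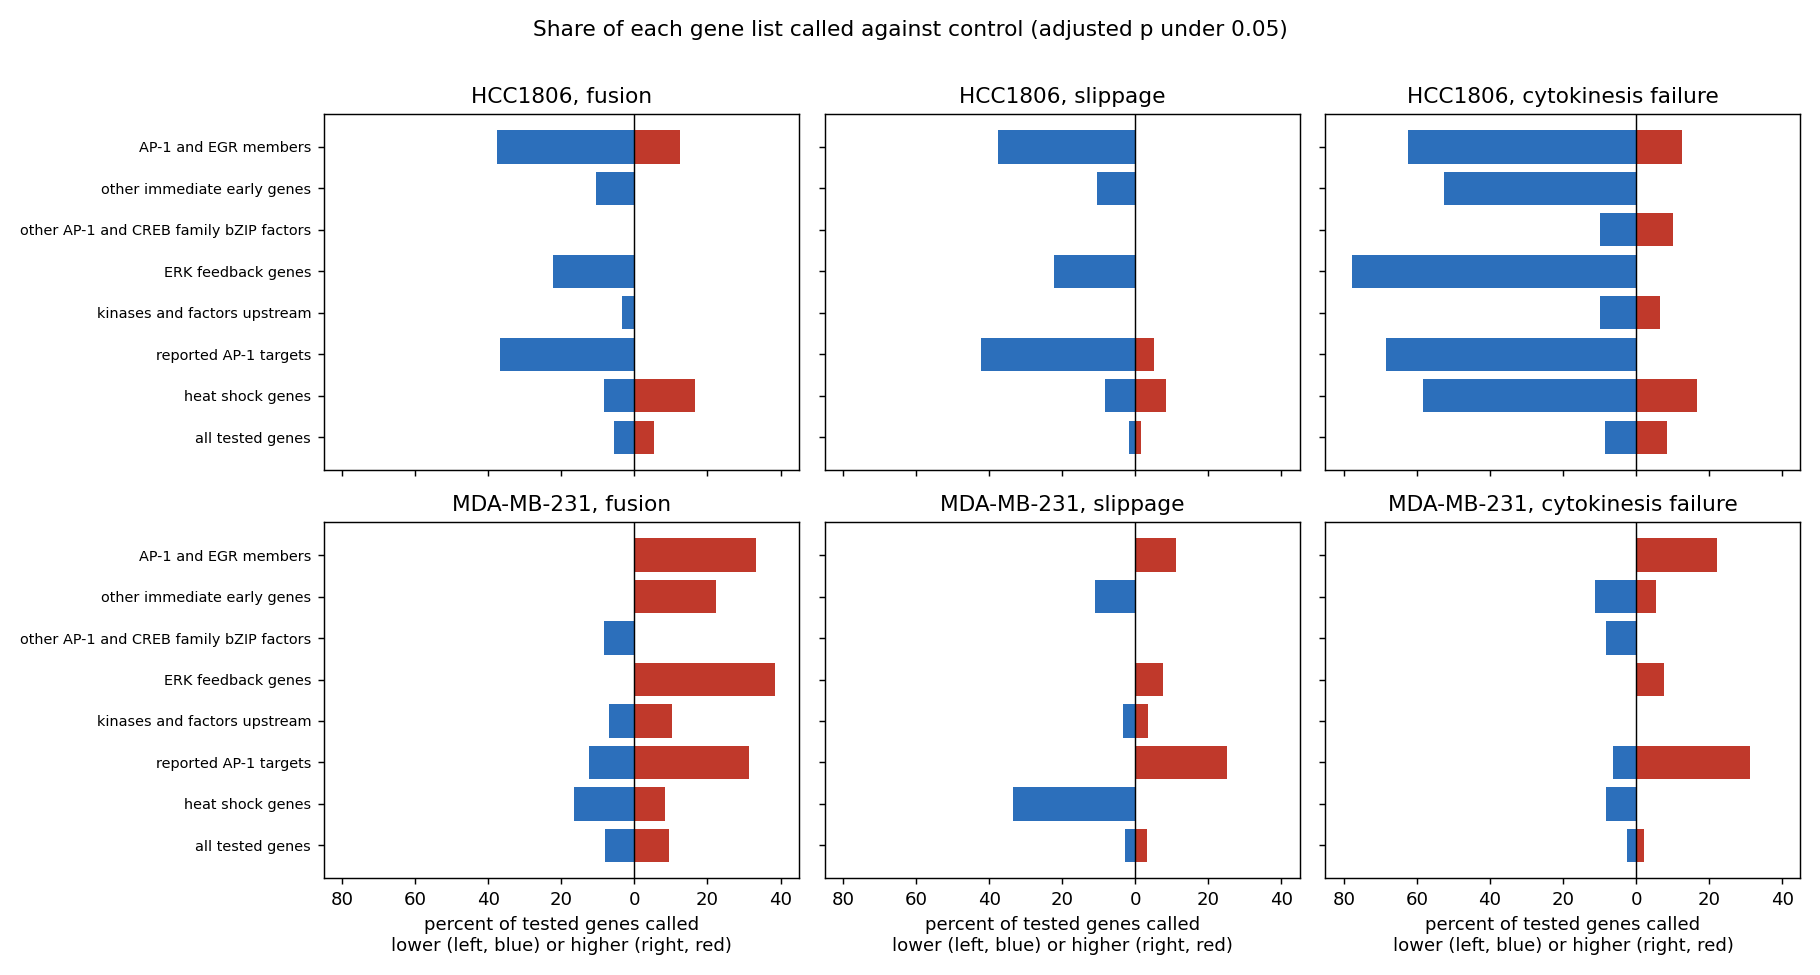
Percent of the tested genes of each list called lower (left, blue) or higher (right, red) than control, for each line and route; the bottom bar of each panel is all tested genes. In HCC1806 cytokinesis failure 13 of 19 reported AP-1 targets and 7 of 9 ERK feedback genes are called lower; in MDA-MB-231 fusion 5 of 16 and 5 of 13 are called higher.

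Other immediate early genes fell mainly in HCC1806 cytokinesis failure, where 10 of 19 fell (8.63% of all genes) and 0 rose. In fusion 2 of 19 fell (5.55%), and in slippage 2 of 19 (1.81%). PHLDA1, an early gene of survival signalling, fell by 0.79 ± 0.057 in cytokinesis failure (edgeR adjusted p = 2.63e-20), TRIB1 by 0.72 ± 0.11 (1.19e-07) and IER2 by 0.50 ± 0.078 (3.58e-07). MAFF, a small MAF bZIP gene, fell by 1.39 ± 0.25 (edgeR adjusted p = 1.55e-05). Leaving out 1 library gave 7 to 9 falls in cytokinesis failure. In fusion the count was 0 without control replicate 1, control replicate 2 or fusion replicate 3 and 4 without fusion replicate 2, and in slippage 1 without slippage replicate 2. In MDA-MB-231, 4 of 18 rose (9.34% of all genes) and 0 fell in fusion: IER2 by 0.30 ± 0.074 (edgeR adjusted p = 0.00362), GADD45B by 0.34 ± 0.084 (0.00364), KLF6 by 0.26 ± 0.074 (0.0127) and MAFF by 0.45 ± 0.14 (0.0164). On log2(TPM + 1) with limma 0 of these 4 were called. KLF6 and MAFF lost their calls, leaving 2, without control replicate 1, control replicate 3 or fusion replicate 1. The matricellular genes CTGF and CYR61 were the 2 of 18 that fell in slippage (2.91% of all genes), by 0.36 ± 0.059 and 0.16 ± 0.049 (edgeR adjusted p = 4.40e-05 and 0.0479). CYR61 there was not called without any control, without slippage replicate 2 or without slippage replicate 3 (edgeR adjusted p = 0.0842 to 0.270), nor in the fit with the replicate number as a block (0.0601). In cytokinesis failure CTGF fell by 0.44 ± 0.059 and CYR61 by 0.38 ± 0.050 (edgeR adjusted p = 1.72e-06 and 7.56e-07), and 1 of 18 rose, a count that was 0 without control replicate 2, cytokinesis failure replicate 1 or cytokinesis failure replicate 2 and 2 without cytokinesis failure replicate 3.

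ERK feedback genes, whose products restrain the ERK pathway or are its ETS effectors, fell in HCC1806 cytokinesis failure, 7 of 9 (8.63% of all genes) with 0 rising, and 2 of 9 fell in each of fusion (5.55%) and slippage (1.81%). Of the 2 in fusion, 0 were called without control replicate 1, control replicate 3 or fusion replicate 1, and 1 without fusion replicate 3. Of the 2 in slippage, 1 was called without control replicate 1 or 3 or without any 1 slippage library. DUSP6, an ERK phosphatase gene, fell by 1.61 ± 0.092 in HCC1806 cytokinesis failure (edgeR adjusted p = 6.88e-25). In MDA-MB-231, 1 of 13 rose in each of slippage (3.27% of all genes) and cytokinesis failure (2.29%), and 5 of 13 rose in fusion (9.34%), led by DUSP5 at 0.79 ± 0.093 (edgeR adjusted p = 2.60e-08). The count was 3 without control replicate 3, 3 with DESeq2 and 1 on log2(TPM + 1) with limma. The list of other AP-1 and CREB family bZIP factors had 0 calls of 10 by edgeR in HCC1806 fusion and in slippage. In each, 2 of 10 had an unadjusted p under 0.05 and 0 were called by DESeq2. Over all genes, 5.33% rose and 5.55% fell in fusion, and 1.53% and 1.81% in slippage. In cytokinesis failure 1 of 10 rose (JDP2, 0.63 ± 0.15) and 1 fell (MAFG, -0.50 ± 0.086), with edgeR adjusted p = 0.00112 and 3.75e-06. These counts are near the 8.37% and 8.63% of all genes. In MDA-MB-231 fusion 1 of 12 fell, near the 8.11% of all genes. In slippage 0 of 12 were called by edgeR and by DESeq2 (3 unadjusted), where 3.27% of all genes rose and 2.91% fell. In cytokinesis failure 1 of 12 fell (2.35% of all genes). That call was lost without any of 5 libraries (control replicate 1 or 2, or cytokinesis failure replicate 1, 2 or 3). Among the kinases and factors upstream, 5 of 30 were called in HCC1806 cytokinesis failure, 2 higher and 3 lower, near the background of 8.37% higher and 8.63% lower over all genes. MAP2K6, a kinase gene of the p38 pathway, rose by 1.60 ± 0.31 there (edgeR adjusted p = 6.27e-05), and the 3 falls were all lost without control replicate 3. In HCC1806 fusion 0 of 30 rose and 1 fell (5.33% and 5.55% of all genes), and in slippage 0 were called by edgeR (1.53% and 1.81%). In MDA-MB-231 fusion 3 of 29 rose and 2 fell (9.34% and 8.11%), and leaving out 1 library gave 0 to 1 rises. In MDA-MB-231 slippage 1 rose and 1 fell (3.27% and 2.91%), and in cytokinesis failure 0 were called by edgeR (2.29% and 2.35%).

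By level across libraries, genes among the most like EGR1 over the 12 HCC1806 libraries were IL8 (Pearson r = 0.90), PPAT (0.90), FHOD1 (0.89) and EAF1 (0.89). The members JUNB, IER3, JUN and FOSL1 had r of 0.85, 0.81, 0.79 and 0.78 with EGR1, and JUND had -0.36. The genes most like JUN over the 12 MDA-MB-231 libraries were NAMPT (r = 0.96), ZFP36L1 (0.93), CCND2 (0.93), MICAL2 (0.92) and LRRC8A (0.92), and of the members FOSL2 stood closest at 0.76, FOSL1 at 0.43. These coefficients on log2 CPM describe 12 libraries that share groups and total depth, and group differences enter them.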

How the data were processed

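TAGseq libraries of 24 samples, 3 per group in 8 groups, were processed by the authors with STAR and Salmon on GRCh38, per the submitters' processing notes; versions, annotation, strand setting and any use of molecular identifiers are not given in the sources used here. The authors deposited estimated counts per gene (29744 genes; 4.41% of values not whole), made before deposit with STAR and Salmon. The authors also made and deposited TPM values, scaled for transcript length to an equal sum in each library, with the same tools per the submitters' processing notes. Low-pass genome data of the study were not analysed here. The members, gene lists and tests were chosen with earlier results of these data known.

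Estimated counts were rounded and fitted in R 4.3.3 with edgeR 4.0.16: filterByExpr by group, TMM scaling and robust quasi-likelihood F-tests, with 12 libraries per line for comparisons within a line and all 24 for comparisons between lines. Benjamini-Hochberg adjustment ran over all tested genes of each of 16 comparisons. A standard error is the log2 change divided by the root of its F value, which need not match the p-value exactly, and 95% intervals use it. All 10 members are named; of each other list, up to 4 genes with the smallest adjusted p in a comparison; for likeness, the 5 genes with the highest Pearson r of log2 CPM (prior count 2) with the member of largest called change in each line. Some genes these rules name are not reported here. Several older symbols of the table (IL8, CYR61, CTGF) were kept. Sequences and positions come from RefSeq tables (GRCh38.p14), exon counts from GENCODE. The script was tested on simulated data. Alternatives were DESeq2 1.42.0, RLE scaling, 2 other filters, limma 3.58.1 on log2(TPM + 1) and log2(TPM + 0.1), a replicate block, and leaving out each library or the 2 noisier MDA-MB-231 libraries. With 1 to 51 counts per library for FOS, EGR1 and ATF3 in HCC1806, counting error limits those values. Replicate numbers did not pair the samples.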

Additional observations from a re-analysis of the deposited data

Results flagged for a closer look

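For 9 results the change on doubling differed between the 2 lines by the test of the difference itself (HCC1806 minus MDA-MB-231, log2, edgeR, all 24 libraries). After fusion these were FOSL1 (-0.58), FOSL2 (-0.58), JUN (-0.49) and EGR1 (-1.89). After slippage it was EGR1 (-1.91). After cytokinesis failure these were FOSL1 (-1.10), JUN (-0.83), EGR1 (-2.16) and IER3 (-0.99). All 9 are lower in HCC1806. The 3 routes of a line share its control libraries, so the values of a gene across routes are not independent.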

How the results depend on the processing

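No member's called fold change reversed under any alternative. The number of members called moved with the tool, the scale and single libraries. DESeq2 called 1 member (against 4) in HCC1806 fusion, 1 (3) in slippage and 2 (4) in slippage against cytokinesis failure, and in MDA-MB-231 0 (1) in slippage and 1 (4) in fusion against cytokinesis failure; adjusted p-values it gave as missing, among them EGR1 in HCC1806 fusion and slippage, were left out. On log2(TPM + 1) with limma the counts were 2 in HCC1806 fusion, 0 in slippage, 1 (3) in fusion against slippage and 2 in slippage against cytokinesis failure, and in MDA-MB-231 1 (3) after fusion, 0 after slippage and 0 (2) after cytokinesis failure. On log2(TPM + 0.1) they were 1 in HCC1806 fusion, 0 in slippage, 1 in fusion against slippage and 2 in slippage against cytokinesis failure, in MDA-MB-231 1 after fusion, 0 after slippage and 0 after cytokinesis failure, and 0 (1) for the line difference in slippage. That line difference gave 2 with no filter on low counts and 3 without the noisier libraries. MDA-MB-231 slippage gave 2 with a stricter filter, and fusion against slippage 2 (1) without the noisier libraries. The causes were not tested.

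Leaving out 1 library at a time gave 2 to 3 calls in HCC1806 fusion, 2 to 3 in slippage, 4 to 6 in cytokinesis failure, 2 to 3 in fusion against slippage, 3 to 4 in fusion against cytokinesis failure and 3 to 5 in slippage against cytokinesis failure. In MDA-MB-231 the ranges were 2 to 3, 0 to 1, 1 to 2, 1 to 2, 1 to 3 and 0 to 0 in the same order. They were 4 to 5, 1 to 1 and 4 to 4 for the line differences of fusion, slippage and cytokinesis failure, and 8 to 9 for the parental populations. Of the 52 called member results, the replicate block, RLE scaling and the stricter filter each kept 52. Same-numbered libraries of different groups did not deviate together (correlations -0.097 to 0.077 in HCC1806 and -0.19 to 0.088 in MDA-MB-231, 0 of 18 pairs over 0.1 in each).

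Over all genes, DESeq2 called 0.372 to 0.944 times as many as edgeR, and log2(TPM + 1) with limma 0.187 to 0.980 times. With limma on log2(TPM + 1), the share of calls that were higher moved by -35.5 to 22.1 percentage points, for example to 18.3% in MDA-MB-231 fusion. The median of all genes moved by up to -0.12 on log2(TPM + 1) and -0.15 on log2(TPM + 0.1). In MDA-MB-231 fusion, where the members' rises are smaller on TPM, that median moved by -0.10 and -0.12. Depth limits FOS, FOSB, EGR1 and ATF3, and JUNB in MDA-MB-231.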
